A study of Mus musculus with 6 samples.

Results

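The 10 genes described here are Trp53, which encodes the tumour suppressor p53, its regulators Mdm2 and Mdm4, its targets Ccng1, Bax, Bbc3 and Zmat3, and the GADD45 family, Gadd45a, Gadd45b and Gadd45g. They were taken by symbol from a table of 55367 gene symbols, and all 10 were found. RNA sequencing measured transcripts in LLC cells, a cultured mouse tumour line derived from a Lewis lung carcinoma and labelled as wild type. The 2 groups were STM2457, cells exposed to 5 µM of a small-molecule inhibitor of the RNA methyltransferase METTL3 for 46 h, and DMSO, cells given the solvent for the same time. Each group had 3 libraries of the same line, and the labels do not state whether these were separate cultures, so the p-values describe the spread among libraries, which may be technical.

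p53 is a transcription factor that DNA damage and other stresses stabilise. MDM2, a ubiquitin ligase, marks p53 for destruction, and because Mdm2 is itself a p53 target the pair form a feedback loop. MDM4 is a relative of MDM2 that binds p53 and holds back its activity. Targets of p53 halt the cell cycle, repair DNA or start apoptosis. The GADD45 proteins are small acidic stress proteins that bind the kinase MAP3K4, the replication clamp PCNA and CDK1. Gadd45a is a p53 target that also responds to p53-independent stress, Gadd45b is known as a target of NF-kappa-B and TGF-beta signalling, and Gadd45g was found as a cytokine-response gene.

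The libraries held 17877639 to 17917209 reads in genes for STM2457 and 17671684 to 17679453 for DMSO, recovered from the deposited log2 values. Levels below are normalised reads, that is, recovered reads divided by the size factor of the library. Folds come from a limma-voom fit of those reads, and calls come from limma on the deposited log2 values with Benjamini-Hochberg adjustment over 12618 tested genes, at an adjusted p under 0.05. Vim, a mesenchymal filament gene, measured 46167 ± 607 normalised reads after STM2457 and 52926 ± 1300 in DMSO (SD, n = 3 each). The epithelial markers Cdh1 and Epcam had 0 reads in each of the 6 libraries, and Krt8 and Krt18 reached at most 8.04 normalised reads in a library, so the epithelial markers of a carcinoma were at or near 0. The 5 leukocyte markers summed to 86.2 to 110 normalised reads after STM2457 and 89.3 to 112 in DMSO, almost all of it Cd68, with Cd3e at 0. The 3 endothelial markers summed to 3.96 to 8.94 after STM2457 and 2.98 to 5.02 in DMSO. The 4 fibroblast markers summed to 294 to 351 after STM2457 and 213 to 239 in DMSO, where Pdgfrb alone of the 4 was called (2.51-fold higher, limma adjusted p = 2.0e-09), and their part in the results was not tested. Mettl3 measured 488 ± 32.4 normalised reads after STM2457 and 537 ± 66.0 in DMSO (SD, n = 3 each, limma adjusted p = 0.15). Its exons overlap those of Tox4 on the other strand over 933 bases. Tox4 measured 1410 ± 45.4 normalised reads after STM2457 and 1188 ± 6.74 in DMSO (SD, n = 3 each). It was called higher (1.17-fold, limma adjusted p = 3.8e-05), and the part of the overlap in the Mettl3 values was not tested. The drug acts on the enzyme and not on its transcript, so Mettl3 does not check the labels.

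After STM2457, 6 of the 10 genes rose, 3 fell and 1 did not pass the test. Trp53, Mdm2, Ccng1, Zmat3, Gadd45b and Gadd45g were the genes that rose, and Mdm4, Bbc3 and Gadd45a were those that fell. Among all tested genes 56.3% were called, 30.7% higher and 25.7% lower, so a call by itself is common in this comparison. Centring each library on its upper quartile changed that background to 22.3% higher and 38.2% lower, and the members then counted 5 higher and 3 lower. All 10 genes passed the filter on low values. The 3 libraries of STM2457 lay wholly above or wholly below those of DMSO in 8 of the 10 genes, 5 above and 3 below, where 61.8% of tested genes did so, 33.4% above and 28.4% below. Calls of at least 1.5-fold were made for 3 members, Bbc3, Gadd45a and Gadd45b, and for 11.5% of all tested genes. The median log2 fold was 0.19 over the 10 genes and -0.006 over all tested genes.

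**Figure D1:**
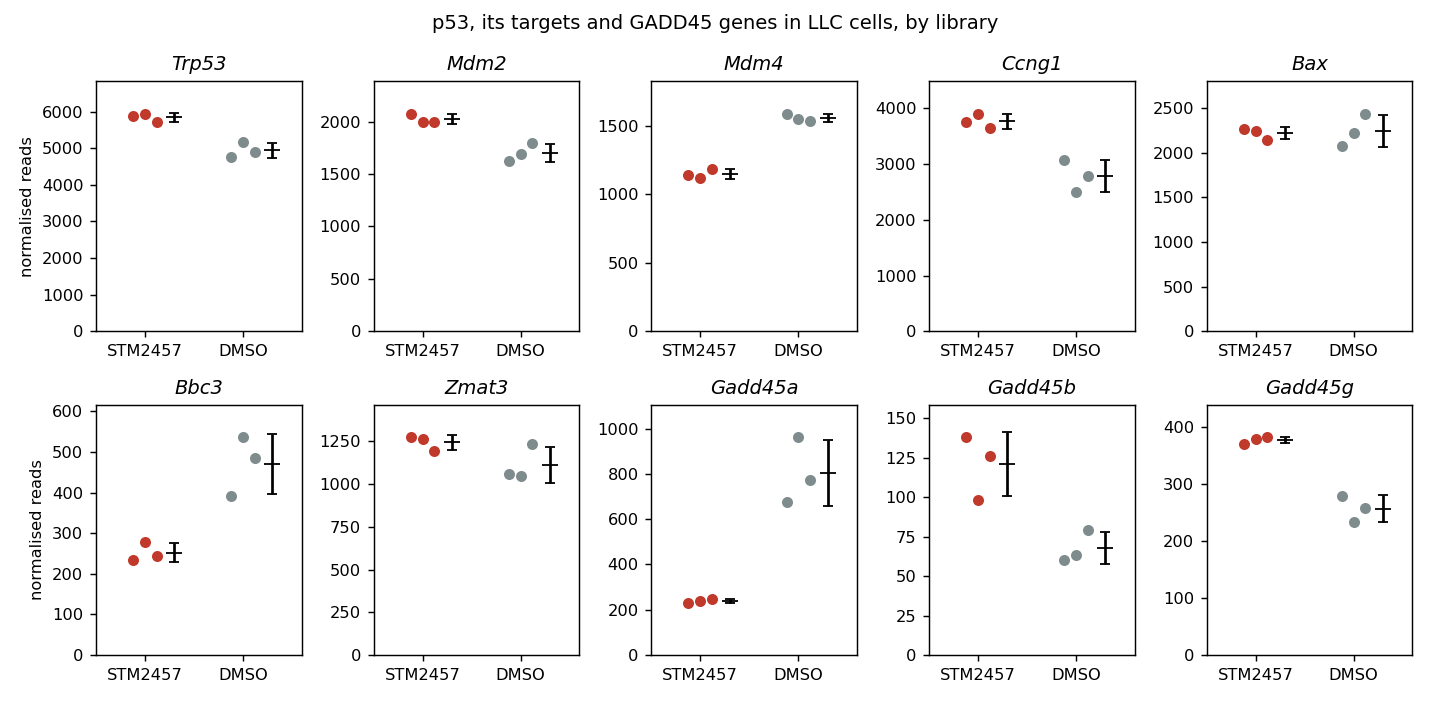
Normalised reads (linear axes from 0) of each gene in the 3 STM2457 libraries and the 3 DMSO libraries, with the group mean ± SD in black. The groups are separate in 8 genes and overlap in Bax and Zmat3.

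Trp53 had 5867, 5941 and 5701 normalised reads in the STM2457 libraries, against 4765, 5166 and 4899 in the DMSO libraries. Every STM2457 library was above every DMSO library. The fold was 1.17 (log2 fold 0.22, SE 0.04, limma adjusted p = 9.4e-06), and 47.6% of tested genes had a larger log2 fold in size. In these bulk samples, a change in the share of cells that carry a transcript and a change in RNA per cell cannot be told apart.

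Mdm2 rose by the same proportion as Trp53. It had 2077, 2002 and 1997 normalised reads after STM2457 and 1629, 1690 and 1798 in DMSO, with no overlap (1.17-fold, log2 fold 0.23, SE 0.04, limma adjusted p = 2.8e-05). Per kilobase of exon, the Mdm2 level was 0.276 ± 0.00715 of the Trp53 level after STM2457 and 0.275 ± 0.0161 in DMSO (SD, n = 3 each, exact two-sided permutation test p = 1.0).

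Mdm4 moved the other way. Its levels were 1137, 1116 and 1186 normalised reads after STM2457, against 1587, 1547 and 1533 in DMSO, so that the highest STM2457 library was well under the lowest DMSO library. Mdm4 fell to 0.728 of the level in DMSO (log2 fold -0.46, SE 0.04, limma adjusted p = 6.8e-09), the smallest adjusted p among the 10 genes. The ratio of Mdm4 to Mdm2 per kilobase was 0.188, 0.192 and 0.204 after STM2457, against 0.335, 0.314 and 0.293 in DMSO, with means of 0.195 ± 0.0084 and 0.314 ± 0.021 (SD, n = 3 each). The exact two-sided permutation test gave p = 0.1, the smallest that 3 against 3 libraries allow, and 0.114 adjusted over the 8 ratios and sums computed for these genes. The annotated Mdm4 exons span 14.8 kb and those of Mdm2 5.08 kb, and the share of the Mdm4 exons used in these cells is not known, so the ratio compares libraries and not absolute amounts.

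Among the targets, Ccng1, the gene of cyclin G1, which brings the phosphatase PP2A to MDM2, rose. It had 3762, 3905 and 3639 normalised reads after STM2457 and 3065, 2495 and 2795 in DMSO. The groups did not overlap, and DMSO replicate 2 was the lowest library. The fold was 1.34 (log2 fold 0.42, SE 0.06, limma adjusted p = 3.7e-05).

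Bbc3 encodes PUMA, a BH3-only protein that triggers apoptosis by freeing or activating BAX and BAK. It measured 233, 278 and 244 normalised reads after STM2457, against 391, 536 and 485 in DMSO, so every STM2457 library lay below every DMSO library. Bbc3 fell to 0.532 of the level in DMSO (log2 fold -0.91, SE 0.12, limma adjusted p = 1.3e-05), and 4.53% of tested genes had a larger log2 fold in size. Bax, whose product forms the pore in the mitochondrial outer membrane, had 2267, 2242 and 2143 normalised reads after STM2457 and 2075, 2221 and 2437 in DMSO. The STM2457 libraries lay inside the range of the DMSO libraries, and no difference was called (0.978-fold, log2 fold -0.03, SE 0.05, limma adjusted p = 0.81). Bax shares 192 exon bases with Gm45808 on the same strand, which had 0 reads in each library. Per kilobase, Bbc3 stood at 0.0843 ± 0.00784 of the Bax level after STM2457 and 0.156 ± 0.0208 in DMSO (SD, n = 3 each, exact two-sided permutation p = 0.1, adjusted 0.114).

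Zmat3, which encodes a zinc finger protein that binds RNA, gave the weakest of the calls. It had 1274, 1265 and 1194 normalised reads after STM2457, against 1059, 1045 and 1233 in DMSO, and DMSO replicate 3 lay within the STM2457 range. The fold was 1.11 (log2 fold 0.15, SE 0.05, limma adjusted p = 0.015). The call ended with upper-quartile centring (adjusted p = 0.13) and without DMSO replicate 1 (0.065), DMSO replicate 2 (0.06), STM2457 replicate 1 (0.069) or STM2457 replicate 2 (0.065).

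**Figure D2:**
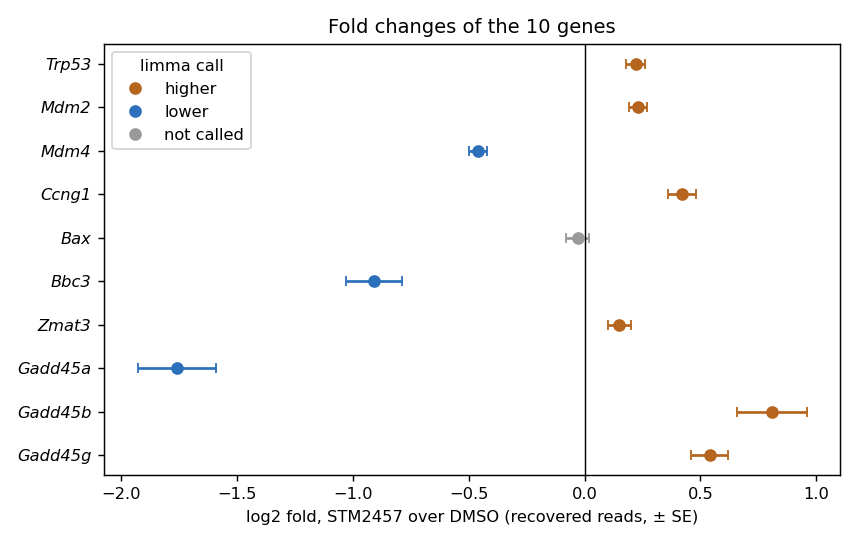
Log2 fold of STM2457 over DMSO for the 10 genes (points, limma-voom on recovered reads) with the SE, coloured by the limma call on the deposited values. Gadd45a (-1.76) and Bbc3 (-0.91) lie farthest to the left and Gadd45b (0.81) farthest to the right.

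The windows just upstream of the RefSeq start sites were searched for letters that match a full p53 site. Of the 10 genes, 4 are grouped here as p53 targets, and Mdm2 and Gadd45a are p53 targets as well. The table of promoters (RefSeq, build GRCm38.p6) held 9 of the 10 genes, all but Zmat3. The p53 consensus of 20 bases, which reads the same on both strands, was matched within 250 bases upstream with up to 1 mismatch in 0.0761% of 32851 promoters and with up to 3 mismatches in 5.32%. The windows of Ccng1, which rose, and Bbc3, which fell, are shown because both hold a match and the transcripts moved in opposite directions. Capitals mark the matched 20 bases, with 1 mismatch in Ccng1 and 3 in Bbc3. The Bbc3 match lies upstream of the first of its 3 listed start sites, and its other start sites had none.
Ccng1, chr11:40755452-40755491, minus strand: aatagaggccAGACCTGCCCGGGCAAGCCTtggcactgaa
Bbc3, chr7:16309476-16309515, plus strand: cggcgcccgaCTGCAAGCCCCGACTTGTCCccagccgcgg
In the GENCODE M21 annotation the Ccng1 window lies in no gene and the Bbc3 window in an intron of Bbc3. Matches with 3 mismatches were also present upstream of Trp53, Bax, Gadd45a and the first of the 2 listed start sites of Mdm4, and no match was found in the window of Mdm2, Gadd45b or Gadd45g. A match describes letters only, and p53 sites of some of these genes are known in introns outside these windows.

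The GADD45 genes moved in both directions. Gadd45a had 230, 239 and 245 normalised reads after STM2457, against 677, 961 and 772 in DMSO. Its STM2457 libraries were close together and far below each DMSO library, of which DMSO replicate 2 was the highest. Gadd45a fell to 0.296 of the level in DMSO (log2 fold -1.76, SE 0.17, limma adjusted p = 1.7e-05), a change exceeded in size by 0.412% of tested genes.

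Gadd45g rose. It had 370, 378 and 381 normalised reads after STM2457 and 279, 233 and 257 in DMSO, with no overlap (1.45-fold, log2 fold 0.54, SE 0.08, limma adjusted p = 1.1e-06). Gadd45b, the lowest of the 10 genes, had 138, 98.4 and 126 normalised reads after STM2457, against 60.1, 63.5 and 79.4 in DMSO. The groups were again separate (1.75-fold, log2 fold 0.81, SE 0.15, limma adjusted p = 2.6e-05), although STM2457 replicate 2 was nearer to the DMSO libraries than the other STM2457 libraries were.

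Because the genes moved in opposite directions, the makeup of the family differed between the groups. Gadd45a gave 25.4% ± 0.794 of the GADD45 reads per kilobase after STM2457 and 63.2% ± 5.78 in DMSO. Gadd45g gave 60.4% ± 1.47 after STM2457 and 30.8% ± 5.36 in DMSO, and Gadd45b 14.3% ± 2.2 after STM2457 and 5.97% ± 1.0 in DMSO (SD, n = 3 each). Gadd45a was thus the leading member in each DMSO library and Gadd45g in each STM2457 library. The ratio of Gadd45a to Gadd45g was 0.414, 0.42 and 0.427 after STM2457, against 1.61, 2.74 and 2.0 in DMSO. Their summed level was 532 ± 12.1 normalised reads per kilobase after STM2457 and 717 ± 62.5 in DMSO (SD, n = 3 each). For these shares, the ratio and the sum alike, the groups did not overlap, and the exact two-sided permutation test gave p = 0.1 (adjusted 0.114), the smallest it can give here.

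**Figure D3:**
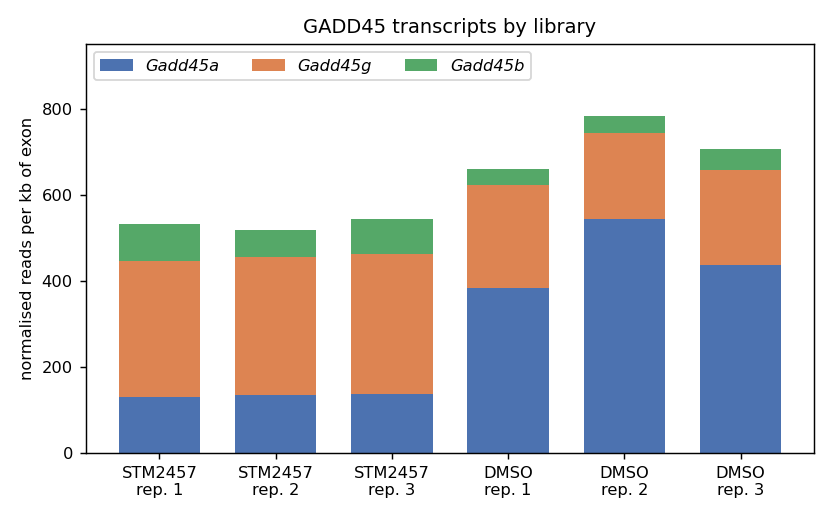
Normalised reads per kilobase of exon (linear axis from 0) of Gadd45a, Gadd45g and Gadd45b, stacked for each library, with STM2457 on the left. The Gadd45a part is between 24.5% and 26% of the bar in STM2457 libraries and 58.2% to 69.5% in DMSO libraries.

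The upstream sequences of the 3 GADD45 genes are shown to set the genes of a family that moved in different directions side by side. Each window runs from 250 to 51 bases before the RefSeq start site (build GRCm38.p6), and capitals mark the CCAAT box (CCAAT) and the octamer (ATTTGCAT), each on either strand.
Gadd45a, chr6:67037458-67037657, minus strand: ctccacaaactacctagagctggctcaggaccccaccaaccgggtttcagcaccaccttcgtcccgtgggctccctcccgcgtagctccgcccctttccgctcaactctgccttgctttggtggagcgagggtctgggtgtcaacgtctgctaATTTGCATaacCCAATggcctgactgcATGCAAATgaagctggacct
Gadd45b, chr10:80929841-80930040, plus strand: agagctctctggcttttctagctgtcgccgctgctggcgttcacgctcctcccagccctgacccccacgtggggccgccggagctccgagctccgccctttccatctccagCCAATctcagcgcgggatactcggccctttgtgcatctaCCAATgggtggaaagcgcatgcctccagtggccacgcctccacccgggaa
Gadd45g, chr13:51846425-51846624, plus strand: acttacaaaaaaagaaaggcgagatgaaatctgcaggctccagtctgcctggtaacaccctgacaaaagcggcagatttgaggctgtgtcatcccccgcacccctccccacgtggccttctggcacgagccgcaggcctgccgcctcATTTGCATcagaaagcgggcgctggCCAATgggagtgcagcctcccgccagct
Gadd45a held 1 CCAAT box between 2 octamers, Gadd45g 1 of each and Gadd45b 2 CCAAT boxes and no octamer. Over all 32851 promoters, 33.8% held a CCAAT box and 1.6% an octamer within 250 bases upstream. The composite of ATF and C/EBP factors (TGATGNAA, either strand), present in 3.45% of promoters, was found in Gadd45g, where it overlaps the octamer, and not in the windows of Gadd45a or Gadd45b. The octamer was found in Gadd45a, which fell, and in Gadd45g, which rose. An E-box (CACGTG) and a TATA box (TATAAA) were found within 250 bases upstream of Gadd45b and Gadd45g and not of Gadd45a. A GC box (GGGCGG) was found in Gadd45a and Gadd45b and not in Gadd45g. Over all promoters, 6.02% held an E-box, 12.4% a TATA box and 32.7% a GC box. Any part of these letters in the changes was not tested. None of the 3 windows overlaps an annotated exon, and that of Gadd45a lies in an intron of E230016M11Rik on the other strand.

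The exons of Gadd45a overlap those of E230016M11Rik over 337 bases, and the sources used here do not say whether reads were counted by strand. E230016M11Rik had 51.7 to 68.4 normalised reads after STM2457 and 52.1 to 86.4 in DMSO (limma adjusted p = 0.17), and the part of the overlap in the Gadd45a values was not tested. In the annotation Gadd45a (chromosome 6, 67035096 to 67037457, minus strand), Gadd45b (chromosome 10, 80930073 to 80932204, plus strand) and Gadd45g (chromosome 13, 51846678 to 51848468, plus strand) are all protein-coding genes. Trp53 (chromosome 11, 69580359 to 69591873, plus strand) has a processed pseudogene, with which reads may have been shared. Read from the minus strand were Mdm2 (chromosome 10, 117688875 to 117710758), Mdm4 (chromosome 1, 132959484 to 133030561) and Ccng1 (chromosome 11, 40748552 to 40755311). Bax (45461697 to 45466898, minus strand) and Bbc3 (16308393 to 16318205, plus strand) share chromosome 7, and Zmat3 sits on chromosome 3 (32334792 to 32366014, minus strand).

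Levels were compared between genes per kilobase of annotated exon. That length joins all annotated exons of a gene, 14.8 kb in Mdm4 and 11.44 kb in Zmat3. The share of them used in these cells is not known, so the order depends on the annotation and may not follow absolute amounts. After STM2457, Trp53 (1443 ± 30.5 normalised reads per kilobase), Bax (1407 ± 41.4) and Ccng1 (1073 ± 37.9) were the highest, followed by Mdm2 (398 ± 8.86), Gadd45g (321 ± 4.76) and Gadd45a (135 ± 4.07). Bbc3 (119 ± 11.1), Zmat3 (109 ± 3.85), Mdm4 (77.5 ± 2.43) and Gadd45b (76.0 ± 12.8) came last (SD, n = 3 each). Within that order the libraries of Trp53 and Bax overlapped, as did those of Bbc3 and Zmat3, those of Bbc3 and Gadd45a and those of Mdm4 and Gadd45b. In DMSO, Bax (1424 ± 116) came before Trp53 (1222 ± 50.5) and Ccng1 (793 ± 81.2), and Gadd45a was the fourth (456 ± 81.9), ahead of Mdm2 (336 ± 16.9). Bbc3 (222 ± 34.8) and Gadd45g (219 ± 19.7) overlapped in DMSO, as did Mdm4 (105 ± 1.92) and Zmat3 (97.3 ± 9.14), and Gadd45b (42.6 ± 6.47) was again the lowest.

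In Gadd45a, Bbc3, Ccng1 and Gadd45g, DMSO replicates 1 and 2 lay at opposite ends of the DMSO range, with replicate 3 between them. In the deposited log2 values replicate 2 differed from the mean of replicates 1 and 3 by 0.24, 0.15, -0.13 and -0.08 in these genes. The deposited log2 difference between the groups was -0.84 for Gadd45a, -0.41 for Bbc3, 0.26 for Ccng1 and 0.25 for Gadd45g with all libraries. Without DMSO replicate 2 it was -0.76, -0.36, 0.21 and 0.22. Without DMSO replicate 1 it was -0.91, -0.48, 0.3 and 0.28. Each stayed under an adjusted p of 0.05 in both cases. The STM2457 libraries of Gadd45a and Gadd45g spread less than the DMSO libraries did, with SDs of 7.17 and 144 normalised reads for Gadd45a and 5.58 and 23.1 for Gadd45g. The Gadd45a SDs belong to unlike means, 238 after STM2457 and 804 in DMSO. Gadd45b went the other way (20.3 after STM2457, 10.3 in DMSO), as did Mdm4 (35.9 and 28.3).

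Other genes known as p53 targets split in both directions. Of 57 listed genes besides the 10, 50 were tested, and 17 (34%) rose, 13 (26%) fell and 20 did not pass, close to the shares over all tested genes, with a median log2 fold of 0.02. With upper-quartile centring the split was 12 higher and 19 lower. Steap3, a ferrireductase gene, rose 1.82-fold, Tob1, an antiproliferative gene, 1.79-fold and Phlda3, an inhibitor of AKT signalling, 1.63-fold. Aen, the gene of an exonuclease of apoptosis, rose 1.53-fold and Gtse1, whose product moves p53 out of the nucleus, 1.5-fold. Ddit4, an inhibitor of mTORC1, fell to 0.389 of its DMSO level. These 6 had the smallest adjusted p-values of the list (limma, 8.0e-18 for Ddit4 to 2.6e-10 for Gtse1).

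The gene of the cell cycle inhibitor p21, Cdkn1a, was picked out after its values were seen. It had 3962, 3941 and 3972 normalised reads after STM2457 and 5560, 4782 and 5954 in DMSO, and fell to 0.723 of the level in DMSO (log2 fold -0.47, SE 0.07, limma adjusted p = 4.3e-04). Its exons overlap a gene on the other strand. Sesn2 and Trp53cor1, also picked out after their values were seen, fell to 0.452 and 0.252 of the DMSO level (limma adjusted p = 8.0e-10 and 2.7e-07). Trp53cor1 was low, with 14.2 ± 4.91 normalised reads after STM2457 and 56.3 ± 12.7 in DMSO (SD, n = 3 each). Its exons overlap genes on the other strand. All of these picked genes fell, while 17 of the 50 tested genes of the list rose. Sesn2 encodes a stress-induced inhibitor of mTORC1 and Trp53cor1 a long noncoding RNA next to Cdkn1a. Pmaip1, Perp, Sfn, Gdf15, Sytl1, Rprm and Trp53i11 were too low to test, with Perp and Trp53i11 at 0 reads.

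**Figure D4:**
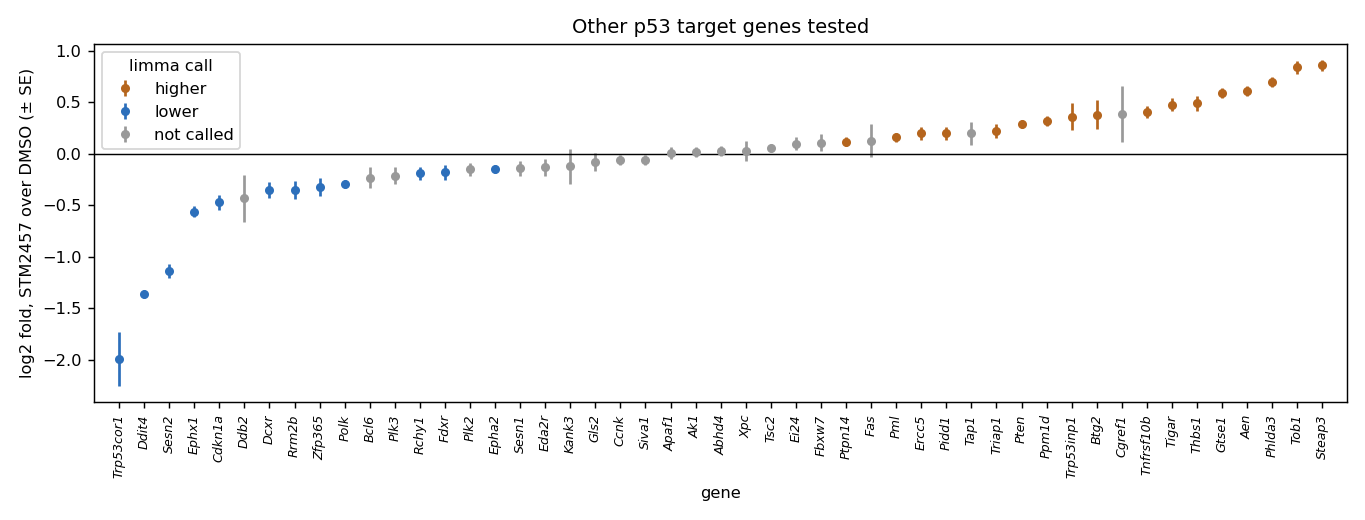
Log2 fold of STM2457 over DMSO (points, limma-voom on recovered reads, ± SE) for 49 of the 50 other p53 targets tested, ordered by fold and coloured by the limma call on the deposited values. The called-higher colour marks 17 of these genes and the called-lower colour 12 of them, with Trp53cor1 lowest and Steap3 highest.

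Genes whose products act on p53 or on MDM2 were higher in 17 of 36 tested cases (47.2%) and lower in 9 (25%), with 10 not called, against 30.7% and 25.7% of all tested genes. The split was 14 higher and 14 lower with upper-quartile centring, and the median log2 fold was 0.05. Hexim1, which encodes an inhibitor of P-TEFb that also binds p53, rose, with 1339 ± 38.8 normalised reads after STM2457 and 806 ± 83.9 in DMSO (1.65-fold). Trp53bp2, the gene of a p53-binding cofactor in apoptosis, rose 1.44-fold, the chaperone gene Daxx 1.34-fold, the p53 deubiquitinase gene Usp10 1.29-fold and the nucleolar gene Mybbp1a, whose exons overlap those of Spns2 on the other strand, 1.26-fold. Npm1, a nucleolar chaperone gene with processed copies that may share its reads, fell to 0.791 of the level in DMSO. Limma adjusted p-values for these 6 ran from 5.1e-10 to 5.1e-08. Cdkn2a, which encodes the MDM2 inhibitor p19ARF, had 0 reads in each library, and the p53 relatives Trp63 and Trp73 were too low to test.

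Of 17 tested genes for partners of the GADD45 proteins and the p38 and JNK kinases downstream of them, 8 (47.1%) rose, 2 (11.8%) fell and 7 were not called, against 30.7% higher and 25.7% lower over all tested genes (median log2 fold 0.09). Map2k6, a kinase that activates p38, fell to 0.538 of its DMSO level with 179 ± 6.36 normalised reads after STM2457 and 329 ± 18.1 in DMSO (SD, n = 3 each). Map2k3, another activator of p38, rose 1.32-fold. Mapk14, the gene of p38 alpha, rose 1.18-fold, Ing1 1.19-fold and Dhx9 1.28-fold (limma adjusted p from 2.1e-09 for Map2k6 to 9.1e-06 for Mapk14). Map3k4 itself, which GADD45 proteins activate and which was picked out after its values were seen, measured 1800 ± 50.5 after STM2457 and 1863 ± 58.7 in DMSO (SD, n = 3 each, limma adjusted p = 0.32). The count of genes that rose was 5 with upper-quartile centring, and also 5 without STM2457 replicate 2 or without DMSO replicate 3.

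The other genes first named for growth arrest and DNA damage, Ddit3 (GADD153, the factor CHOP) and Ppp1r15a (GADD34, a phosphatase subunit), were lower as well. Ddit3 had 372, 368 and 317 normalised reads after STM2457, against 642, 1086 and 778 in DMSO (0.426-fold, limma adjusted p = 0.015). Ppp1r15a had 644, 579 and 540 after STM2457, against 739, 1084 and 845 in DMSO (0.66-fold, limma adjusted p = 0.04), and its exons overlap those of Tulp2 on the other strand. In both genes the groups were separate and DMSO replicate 2 was the highest library. Neither was called without STM2457 replicate 1, 2 or 3, and 1 of the 2 was called without DMSO replicate 3, without a filter on low values or with the replicate number as a block.

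A list of GADD45 inducers held 16 tested genes for factors known to drive GADD45 transcription or, for Myc, to repress Gadd45a. Of these 5 (31.2%) rose, 4 (25%), Myc among them, fell and 7 were not called. These shares were near the 30.7% and 25.7% of all tested genes (median log2 fold 0.08). Atf4, the factor of the integrated stress response, fell to 0.653 of the DMSO value with 9893 ± 302 normalised reads after STM2457 and 15003 ± 1090 in DMSO (SD, n = 3 each, limma adjusted p = 4.6e-10). Foxo3, a forkhead factor, fell to 0.855 and Myc, which represses Gadd45a, to 0.666 of the DMSO level. Rela, an NF-kappa-B subunit, rose 1.26-fold, Nfya, a subunit of the factor that binds CCAAT boxes, 1.17-fold and Atf2 1.09-fold. The count of genes that rose was 2 with upper-quartile centring, where Atf2 was not called, and 3 by limma-voom and without STM2457 replicate 1 or 3. Pou2f1, the gene of a factor that binds the octamer, also picked out after its values were seen, measured 395 ± 27.7 normalised reads after STM2457 and 363 ± 23.2 in DMSO (SD, n = 3 each, limma adjusted p = 0.15). The exons of Pou2f1 overlap those of Cd247 on the other strand.

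Beside Bax and Bbc3, 14 further genes of the mitochondrial pathway of apoptosis were tested, of which 7 (50%) rose, 4 (28.6%) fell and 3 were not called, against 30.7% higher and 25.7% lower over all tested genes (median log2 fold 0.07). Mcl1, which protects cells from apoptosis, rose 1.37-fold, with 2856 ± 103 normalised reads after STM2457 and 2061 ± 19.7 in DMSO (SD, n = 3 each, limma adjusted p = 4.2e-10). Bak1, which like Bax forms pores, rose 1.19-fold, its relative Bok 1.27-fold, the BH3-only gene Bad 1.12-fold and the cytochrome c gene Cycs 1.11-fold. Bcl2l11, the gene of the BH3-only protein BIM, fell to 0.829 of the level in DMSO (limma adjusted p = 0.0073). The exons of Bak1 and Bad overlap genes on the other strand. The count of genes that rose was 4 with upper-quartile centring, where Bad was not called. The count that fell was 1 without STM2457 replicate 1, and 2 without STM2457 replicate 2 or DMSO replicate 3.

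The genes whose pattern was nearest to a member were found from the Euclidean distance between deposited log2 values centred on each gene's mean over the 6 libraries. For Trp53 these were Bmi1 (distance 0.0207), Faf2 (0.0212) and Cd320 (0.0234). For Gadd45a they were Cxcl1 (0.0985), Gpt2 (0.124) and Kif21b (0.166), all of them lower after STM2457. The nearest to Gadd45b were Pigyl (0.0703), Rnf219 (0.0804) and Btbd6 (0.087), and the nearest to Gadd45g were Tmem50b (0.0222), Gnptab (0.024) and Lima1 (0.0277). The distances mainly reflect the difference between the groups, so they describe a like size of change over the same 6 libraries.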

How the data were processed

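RNA from LLC cells was extracted with TRIzol before SMARTER mRNA-Seq library preparation, per the labels' protocols. The submitters' processing notes name HISAT2 2.2.1, featureCounts 2.0.1 of Subread, FastQC 0.11.9, DESeq2 and build GRCm38. The counting annotation and strand setting are not given in these sources. The authors deposited 1 table of log2 values per gene symbol and library. From its values it is a regularised log2 transform, which shrinks differences, most at low counts, and no header states it.

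Reads were recovered by inverting that transform (ridge penalty 60.22, dispersion 1.898 over the mean plus 0.0111), with these parameters set so that low genes come out as whole reads. Of 17555 genes with a mean under 500 reads, 98.8% of values were whole to within 0.05 reads, and from 500 to under 2000 reads 87.3% were. Above 2000 reads 58.6% were whole, so levels of Trp53, Ccng1 and Bax and the read totals of the libraries are less exact in the last digits. Intervals from counting were not used.

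Genes with a mean log2 value of at least 3.32 were tested with limma 3.58.1 in R 4.3.3 (group as the only term, mean-variance trend, robust priors, statmod 1.5.0). That test took the log2 values as deposited, with no pseudocount. Folds came from limma-voom on the recovered reads with TMM scaling, which adds 0.5 reads to each count before taking logs. Exon lengths and positions came from GENCODE M21 (GRCm38), which holds 96.3% of the table's symbols. Ratios were tested with exact permutation tests (scipy 1.17.1). The inversion and the fits were tested on simulated data. Those data were transformed and inverted with the same fitted parameters, so they do not test the assumed transform or those parameters. The 10 genes and the 7 gene lists were chosen with earlier results of these data known. The rule for named genes took up to 6 called genes with the smallest adjusted p from each list and the 3 genes nearest to Trp53 and to each GADD45 gene. Some listed genes, including ones the rule takes, enter the counts but are not reported here in text or plots. Genes named outside the rule are marked in the text.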

Additional observations from a re-analysis of the deposited data

How the results depend on the processing

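Each of the 10 genes was refitted under 13 alternatives: no filter, a filter at 50 reads, upper-quartile centring, limma-voom with either of 2 scalings, eBayes without trend or robust priors, the replicate number as a block, and leaving out each library. All but Zmat3 kept their direction where called and their side of the threshold in all 13, and Zmat3 lost its call in 5. Gadd45a ranged from -1.76 to -0.76 and Bbc3 from -0.91 to -0.36 on the log2 scale, with the larger sizes from recovered reads, which are not shrunken. Mettl3 was called lower with upper-quartile centring (-0.1, limma adjusted p = 0.04) and without DMSO replicate 1 (-0.11, 0.0089), and leaving out a library gave -0.11 to -0.02.

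With upper-quartile centring, 14 regulators of p53 were lower (9 before), 5 GADD45 partners higher (8) and 4 lower (2), 2 GADD45 inducers higher (5), 4 apoptosis genes higher (7) and 11 DREAM targets lower (3). By limma-voom, 3 inducers were higher and 6 DREAM targets lower with either scaling. Of Ddit3 and Ppp1r15a, 1 was called without a filter and 1 with the replicate block. Leaving out a library gave 5 to 7 GADD45 partners higher, 0 to 2 of Ddit3 and Ppp1r15a lower, 3 to 5 inducers higher, 1 to 3 apoptosis genes lower and 2 to 6 DREAM targets lower. The cause was not tested. The labels do not say whether same-numbered libraries were handled together. Correlations of their deviations were 0.011 to 0.05, against -0.056 to 0.022 for libraries of different numbers. The replicate block gave 3864 genes higher and 3226 lower, against 3868 and 3240 without it. Listed genes with few or 0 reads at this depth, such as Pmaip1, were not tested.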

Other observations

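Genes that p53 represses through p21 and the DREAM complex, mostly genes of DNA replication and mitosis, were tested in 25 cases, of which 8 (32%) rose, 3 (12%) fell and 14 were not called, against 30.7% higher and 25.7% lower over all tested genes, with a median log2 fold of -0.02. The mitotic kinase genes Plk1 and Aurka rose 1.41-fold and 1.4-fold, Mybl2, whose product replaces the repressor in the complex, 1.39-fold, Cdc20, an activator of the anaphase-promoting complex, 1.28-fold and Birc5, the survivin gene, 1.23-fold. Top2a, the gene of DNA topoisomerase II alpha, fell to 0.801 of the level in DMSO (limma adjusted p from 6.3e-11 for Aurka to 2.0e-07 for Birc5). The count that fell was 6 without DMSO replicate 2, 6 by limma-voom and 11 with upper-quartile centring, where 7 rose. The exons of Plk1 and Cdc20 overlap genes on the other strand.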
